A study of Mus musculus with 6 samples.

Results

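Hat1 and 7 genes of histone chaperones, Chaf1a, Chaf1b, Asf1a, Asf1b, Rbbp4, Rbbp7 and Nasp, were followed across RNA that came down from mouse testis lysate with an antibody against MVH, RNA that came down with normal rabbit IgG, and total RNA. Members were taken by gene symbol, with older symbols brought to current ones. Each of the 8 genes had 1 probe, so that 8 of the array's 23473 probes, and 8 of 16390 named genes, were followed, and all 8 had a value on all 6 arrays. MVH (DDX4) belongs to the DEAD-box helicases, which bind and unwind RNA, and is made in germ cells. The MVH precipitate, the IgG precipitate and total RNA (WCE in the labels, taken with no antibody) were each hybridised to 2 arrays, numbered 1 and 2, all from testis of the strain labelled C57/BL6. Per the labels' protocols a lysate was made from 2 testes, and the labels give neither an age nor whether a group's arrays stem from separate animals, so the spread behind the p-values may be technical.

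Newly made histones H3 and H4 are received in the cytoplasm by chaperones, acetylated on H4 by the HAT1 enzyme with its histone-binding partner RBBP7, and passed to ASF1, which hands them to CAF-1 for deposition on newly replicated DNA. CAF-1 is built of a large subunit (Chaf1a), a middle subunit (Chaf1b) and the histone-binding protein RBBP4. NASP keeps a reserve of soluble H3 and H4 and has a form made in testis. In mouse testis HAT1 and RBBP7 have also been reported to acetylate MVH itself. In the testis, histones are deposited in dividing spermatogonia and before meiosis, and are largely replaced by transition proteins and protamines in spermatids.

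Each array listed 22090 to 22965 probes, and intensities are given with the array median scaled to 30, which changes the deposited values of IgG precipitate 2 alone, whose median was 20.8. Across 21241 probes listed on all 6 arrays, arrays of a group differed with an SD of 0.47 (MVH), 0.60 (IgG) and 0.45 (total RNA) on the log2 scale. Testis markers were present on every array. Of the 11 germ cell markers Prm1, Prm2 and Tnp1 were the brightest, with Prm2 and Tnp1 both at the highest value of each total RNA array. The other 8 summed to 36848 and 49087 in the MVH precipitates, 22438 and 22347 in the IgG precipitates, and 26063 and 33273 in total RNA. In intensity, the largest gaps among them were those of Pgk2 (9349 and 14813 with MVH, 3321 and 2185 with IgG) and Spata18 (12199 and 15532, 3414 and 4947). The sums of all 11 overlapped, at 219402 and 288572 with MVH and 202962 and 285835 with IgG. Their median log2 difference was 0.05, with 8 positive and 3 negative. Ddx4, which encodes MVH, differed by 0.05 ± 0.30 (SE) on the log2 scale between the MVH and IgG precipitates (limma adjusted p = 0.944). The number of arrays limits the precision, and because of amplification and centring the yield of each precipitation is unknown.

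The first question was whether mRNAs of this pathway stood higher with the MVH antibody than with IgG, relative to the array median. Chaf1a was higher and Nasp was lower, and the other 6 genes did not pass the test. The log2 differences ran over a wide range, with positive values for Chaf1a, Hat1, Chaf1b and Asf1a and negative ones for Rbbp4, Asf1b, Rbbp7 and Nasp, and the 8 had a median of -0.19 against 0.07 over all probes. Called means a limma adjusted p under 0.05. One member was called higher and 1 lower, 2 of 8, where 7.97% of all 21574 probes tested were called (3.82% higher and 4.15% lower). At an unadjusted p under 0.05 there were 5 of 8, against 25.5% of all probes. The arrays of the 2 precipitates did not overlap for 6 of 8 members (3 higher and 3 lower with MVH), against 53.7% of all probes (29.9% higher and 23.8% lower), so that such separation was common on these arrays.

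Chaf1a, the large subunit of CAF-1, which binds the replication clamp and carries the deposition activity, read 235 and 245 (scaled intensity) in the MVH precipitates, 54.9 and 47.5 in the IgG precipitates, and 88.0 and 82.2 in total RNA. Both MVH arrays lay above all 4 others, as they did for 11.4% of the 21241 probes, both IgG arrays lay below all 4 others, as for 20.0%, and the arrays of each group were close together. Chaf1a was 4.70-fold higher with MVH than with IgG (2.23 ± 0.26 in log2, SE, 2 arrays per group, limma adjusted p = 0.0148). That put it at rank 80 from the highest among the 21574 probes. The size moved little with the setting, between 2.13 and 2.50, but the call was lost without MVH precipitate 2 (2.20, adjusted p = 0.103), without either total RNA array, and with only the 4 arrays compared (2.23 and adjusted p = 0.0533 in each case). At each of these settings 0 of all probes were called, against 1719 in the fit of all 6 arrays. A total RNA array does not enter the difference between the precipitates, only the estimate of its spread.

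Nasp, the reserve chaperone of H3 and H4, was bright in every group. It had 9947 and 13743 in the MVH precipitates, 27422 and 33949 in the IgG precipitates, and 20127 and 24214 in total RNA. In scaled intensity both MVH arrays lay below all 4 others, as for 11.5% of probes. Both IgG arrays lay above all 4 others, as for 14.3%. As deposited, IgG precipitate 2 read 23537.9, below total RNA array 2 at 24214. Nasp was 2.61-fold lower with MVH than with IgG (-1.38 ± 0.30 in log2, SE, 2 arrays per group, limma adjusted p = 0.0306), rank 592 from the lowest. The highest values on the 6 arrays as deposited were 67580 to 83665.2, and whether the brightness of Nasp was compressed by saturation was not tested. The direction held at every setting (-1.62 to -1.12), but the call was lost without MVH precipitate 1 (-1.15, adjusted p = 0.147), MVH precipitate 2 (-1.62, 0.106), IgG precipitate 2 (-1.23, 0.0745) or either total RNA array (-1.38, 0.0687), with only the 4 arrays compared (-1.38, 0.0687) and with no centring (-1.12, 0.123). Which of the forms of Nasp the probe reads is not given in the sources used here.

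**Figure D1:**
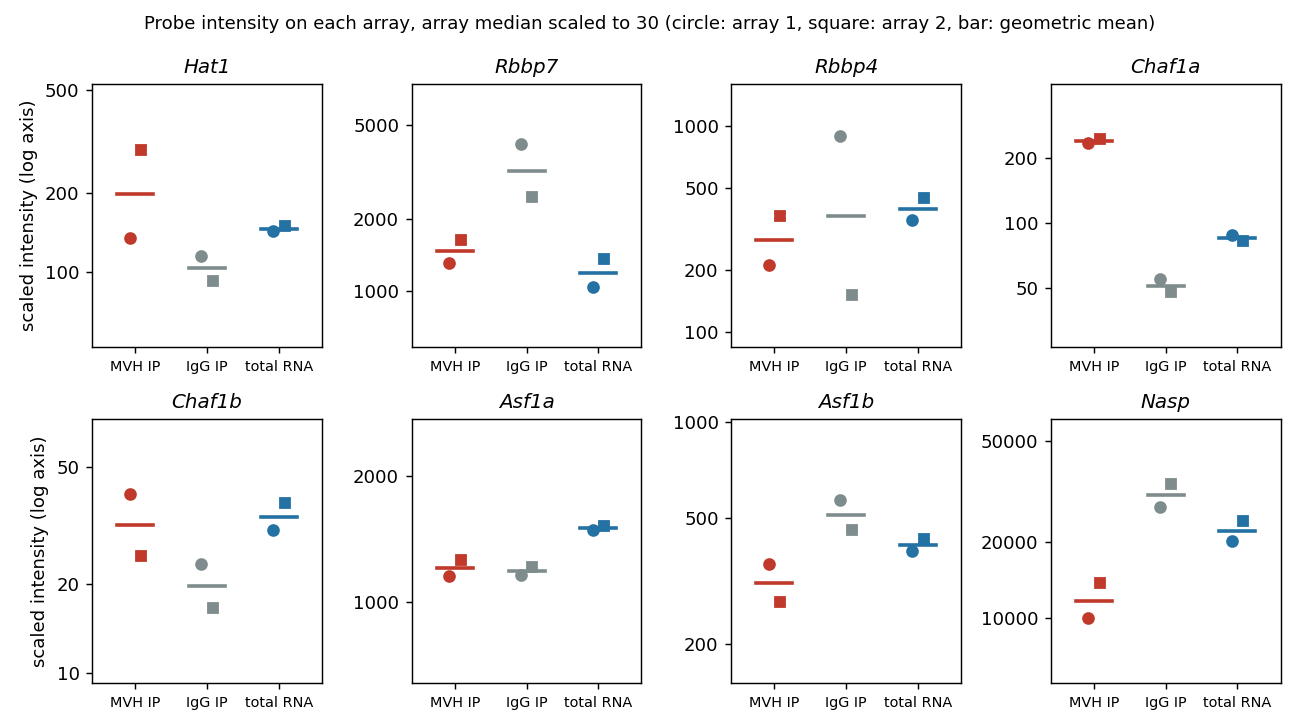
Scaled intensity (log axis, array median 30) of the 8 probes on each of the 6 arrays, with the MVH immunoprecipitate (IP) on the left, the IgG IP in the middle and total RNA on the right; circles are array 1, squares array 2 and bars the geometric mean. The MVH arrays of Chaf1a, at 235 and 245, stand above the other 4, those of Nasp, at 9947 and 13743, below the other 4, and the IgG arrays of Rbbp4 lie far apart, at 891 and 152.

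Hat1, the acetyltransferase of new histone H4, had 134 and 293 in the MVH precipitates, 115 and 91.9 in the IgG precipitates, and 143 and 149 in total RNA. MVH precipitate 2 stood apart from the other 5 arrays, while MVH precipitate 1 lay within the range of the rest. The Hat1 arrays with MVH lay above those with IgG and differed between themselves by 2.19-fold. The difference from the IgG precipitate was 0.95 ± 0.38 in log2 (SE, 2 arrays per group, limma adjusted p = 0.159, 95% interval 0.08 to 1.81 unadjusted). With MVH precipitate 2 left out it was 0.38, with MVH precipitate 1 left out 1.51, and it passed at none of the 16 alternative settings (adjusted p = 0.0799 to 0.622).

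Rbbp7, which encodes the partner of HAT1, also called p46, had 1309 and 1639 in the MVH precipitates, 4177 and 2486 in the IgG precipitates, and 1034 and 1366 in total RNA. Both IgG arrays lay above the other 4, while those of the MVH precipitate and of total RNA overlapped. The difference between MVH and IgG was -1.14 ± 0.34 in log2 (SE, 2 arrays per group, limma adjusted p = 0.0726), short of the threshold. It passed without the dimmest 25% of probes (adjusted p = 0.0274), with an offset of 4 before log2 (0.027), with a variance trend and robust fitting together (0.0208) and without IgG precipitate 2 (log2 -1.51, 0.0457). Without IgG precipitate 1 the difference was -0.76 (adjusted p = 0.223).

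Rbbp4, the close relative of Rbbp7 that serves in CAF-1 and in several histone-modifying complexes, was the least certain member. It had 212 and 368 in the MVH precipitates, 891 and 152 in the IgG precipitates, and 352 and 448 in total RNA. The IgG arrays held both the highest and the lowest value of the 6, and differed by 5.84-fold. The difference between MVH and IgG was -0.40 ± 0.69 in log2 (SE, 2 arrays per group, limma adjusted p = 0.773). It was 0.87 without IgG precipitate 1 and -1.67 without IgG precipitate 2, so that its direction rested on which IgG array was kept. The probe sequences were not used here, and whether the probes of this pair of similar mRNAs read each other's transcript was not tested.

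Chaf1b, the middle subunit of CAF-1, which binds ASF1, was dim, near the array median. It had 40.4 and 24.9 in the MVH precipitates, 23.4 and 16.6 in the IgG precipitates, and 30.5 and 37.7 in total RNA. The IgG arrays lay below the other 4, and the MVH arrays spanned those of total RNA. Between MVH and IgG the difference was 0.69 ± 0.34 in log2 (SE, 2 arrays per group, limma adjusted p = 0.242). It was 0.34 without MVH precipitate 1, 1.04 without MVH precipitate 2 and 0.44 without IgG precipitate 2.

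Of the ASF1 genes, which encode the acceptors of H3 and H4 ahead of deposition, Asf1a was the most even member. It had 1157 and 1260 in the MVH precipitates, 1162 and 1216 in the IgG precipitates, and 1484 and 1519 in total RNA. The precipitates overlapped, and both were below total RNA. Asf1a differed between MVH and IgG by 0.02 ± 0.26 in log2 (SE, 2 arrays per group, limma adjusted p = 0.969, 95% interval -0.56 to 0.61), an interval that leaves room for differences of up to 0.61. Asf1b, the form of dividing cells, had 357 and 272 in the MVH precipitates, 569 and 458 in the IgG precipitates, and 393 and 428 in total RNA. Like Nasp, in scaled intensity it was lowest on both MVH arrays and highest on both IgG arrays. The difference was -0.71 ± 0.28 (SE, 2 arrays per group, limma adjusted p = 0.157), and -0.45 with no centring (limma adjusted p = 0.546). As deposited, IgG precipitate 2 read 317.6, below MVH precipitate 1 (357.3) and both total RNA arrays (393.3 and 427.5).

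Some markers of other cell types also differed in this contrast. Of 8 Leydig cell markers, 6 were on the array and tested, and 4 were lower with MVH than with IgG (Cyp17a1 by -2.59 on the log2 scale). Their scaled intensities summed to 512 and 494 in the MVH precipitates, 3004 and 1888 in the IgG precipitates, and 662 and 1134 in total RNA, and the dimmest, Hsd17b3, lay between 3.10 and 6.60. Of 8 peritubular and vascular markers, 6 were tested and 2 were lower with MVH than with IgG (Acta2 by -2.42, Myh11 by -1.51). The rest did not pass, with Tagln at -1.32, Cnn1 at -0.24, Des at 0.11 and Vwf at 0.01. The list summed to 560 and 364 on the MVH arrays, against 3173 and 1480 for IgG. Pecam1 was blank on IgG precipitate 1 and Cdh5 on IgG precipitate 2. The total RNA arrays had sums of 430 and 525, which overlapped those of MVH. Acta2 made up most of each sum. Relative to total RNA, the IgG precipitate was higher by 2.31 for Acta2 and 2.25 for Myh11, short of the threshold (limma adjusted p = 0.059 and 0.0542). Of the Sertoli cell markers 0 of 9 passed by limma, and the median was 0.04, with 5 positive and 4 negative. Their sums were 9461 and 10400 in the MVH precipitates, 17221 and 17591 in the IgG precipitates, and 11644 and 15620 in total RNA. Those sums came mostly from Clu (3278 and 3367 with MVH, 5907 and 5264 with IgG) and Cst12 (5983 and 6806, 10969 and 12080). Of the germ cell markers 3 of 11 were higher with MVH (Pgk2, Sycp3 and Spata18) and 1 lower (Tex101). For 5 macrophage and blood markers the sums were 88.0 and 95.1 with MVH against 78.4 and 65.9 with IgG. Cd3e was blank on IgG precipitate 2, so that 65.9 lacks it, and 0 of 4 tested passed. The part of these shifts in the values of the 8 genes was not tested. Fewer cells of a type, less RNA per cell and a difference in what each antibody brought down cannot be told apart here.

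The second question was enrichment over total RNA, which sets the MVH precipitate against the abundance of each mRNA. No member was called by limma, 0 of 8, against 0.0138% of all 21793 probes. At an unadjusted p under 0.05 there were 2 of 8, Chaf1a and Nasp, against 8.93% of all probes. The arrays did not overlap for 4 of 8 members, 1 higher and 3 lower, against 40.3% of all probes (18.7% higher and 21.6% lower). Chaf1a differed by 1.49 ± 0.26 on the log2 scale, a ratio of 2.82 (SE, 2 arrays per group, limma adjusted p = 0.156), rank 154 from the highest. It passed without the dimmest 25% of probes (1.49, adjusted p = 0.0243), with an offset before log2 (1.45, 0.0283) and with a variance trend and robust fitting (1.49, 0.0161). At these settings 123, 93 and 180 of all probes were called, against 3 as reported. Chaf1a did not pass at the other 13 settings, among them no centring (1.49, adjusted p = 0.364). With 1 array left out its difference ranged from 1.45 to 1.54. Nasp differed by -0.92 ± 0.30 (limma adjusted p = 0.392). Hat1 differed by 0.44 ± 0.38 (limma adjusted p = 0.86), a value that was -0.12 without MVH precipitate 2. For Rbbp7 the difference was 0.30, for Chaf1b -0.10, for Asf1a -0.31, for Asf1b -0.40 and for Rbbp4 -0.51, with limma adjusted p between 0.806 and 0.991.

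The third comparison set the IgG precipitate, taken without the MVH antibody, against total RNA, as levels relative to the array median and not as amounts brought down. No member was called by limma, 0 of 8, against 0.00934% of all 21413 probes, and 3 of 8 had an unadjusted p under 0.05, against 18.2% of all probes. The arrays did not overlap for 7 of 8 members, 3 higher and 4 lower, against 49.6% of all probes (20.0% higher and 29.6% lower). Rbbp7 stood out at 1.44 ± 0.34 on the log2 scale, a ratio of 2.71 (SE, 2 arrays per group, limma adjusted p = 0.0828), rank 341 from the highest. It passed without the dimmest 25% of probes (adjusted p = 0.0221), with an added offset (0.0241) and with a variance trend and robust fitting (0.0146). At these settings 1183, 1118 and 1253 of all probes were called, against 2 as reported. Rbbp7 did not pass at the other 13 settings, among them no centring (1.17, adjusted p = 0.252). With 1 array left out its difference ranged from 1.06 to 1.81. Chaf1a differed by -0.74 ± 0.26 (limma adjusted p = 0.189) and Chaf1b by -0.78 ± 0.34 (limma adjusted p = 0.264). Hat1 was at -0.50, Asf1a at -0.34, Rbbp4 at -0.11, Asf1b at 0.32 and Nasp at 0.47. The 3 comparisons share arrays in pairs, so that their values are not independent of each other.

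**Figure D2:**
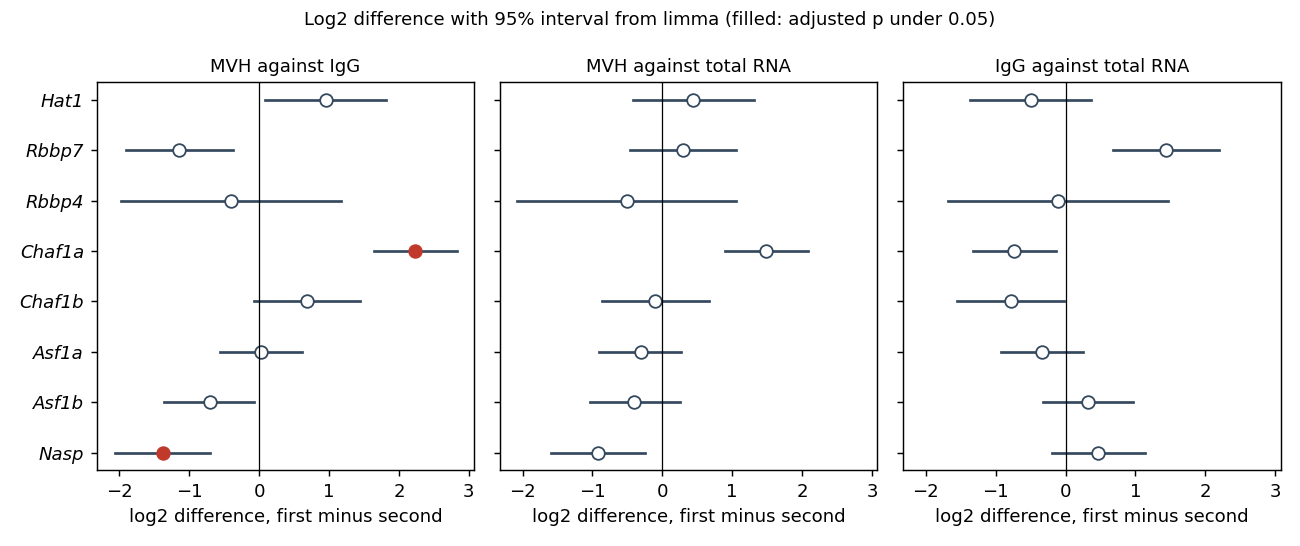
Log2 difference of each of the 8 probes in the 3 comparisons, first group minus second, with unadjusted 95% intervals from limma as lines and filled points where the adjusted p was under 0.05. Chaf1a (2.23) and Nasp (-1.38) are filled in the comparison of the MVH with the IgG precipitate, and no point is filled in the other comparisons.

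In order of level, Chaf1a and Hat1 ran from the MVH precipitate through total RNA to the IgG precipitate, Chaf1b from total RNA through the MVH to the IgG precipitate, and Nasp and Asf1b from the IgG precipitate through total RNA to the MVH precipitate. Rbbp7 ran from the IgG precipitate through the MVH precipitate to total RNA, Rbbp4 from total RNA through the IgG to the MVH precipitate, and Asf1a from total RNA to the MVH and IgG precipitates. For Chaf1a and Nasp the ends of the order differed past the threshold. Neighbours in the order did not pass for any of the 8.

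Ratios of partner probes within an array do not depend on the centring. The log2 ratio of Chaf1a over Chaf1b was 2.54 and 3.30 in the MVH precipitates, 1.23 and 1.52 in the IgG precipitates, and 1.53 and 1.12 in total RNA. The MVH arrays lay above all others, by 1.54 on average over IgG and 1.59 over total RNA, whereas the IgG and total RNA arrays overlapped. The step between the MVH arrays and the others exceeded the gap between arrays of a group. A single value compared over 2 against 2 arrays cannot reach an exact permutation p below 0.333 (two-sided), and the ratios were not tested in a model.

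For Asf1b over Asf1a the log2 ratio was -1.70 and -2.21 in the MVH precipitates, -1.03 and -1.41 in the IgG precipitates, and -1.92 and -1.83 in total RNA. The IgG arrays lay above the other 4, and those of the MVH precipitate overlapped with total RNA. For Rbbp7 over Rbbp4 it was 2.63 and 2.15 in the MVH precipitates, 2.23 and 4.03 in the IgG precipitates, and 1.55 and 1.61 in total RNA. Both precipitates lay above total RNA, and they overlapped each other. For Hat1 over its partner Rbbp7 it was -3.29 and -2.48 in the MVH precipitates, -5.18 and -4.76 in the IgG precipitates, and -2.86 and -3.20 in total RNA. Here the IgG arrays stood below all others, while the MVH precipitate and total RNA overlapped.

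**Figure D3:**
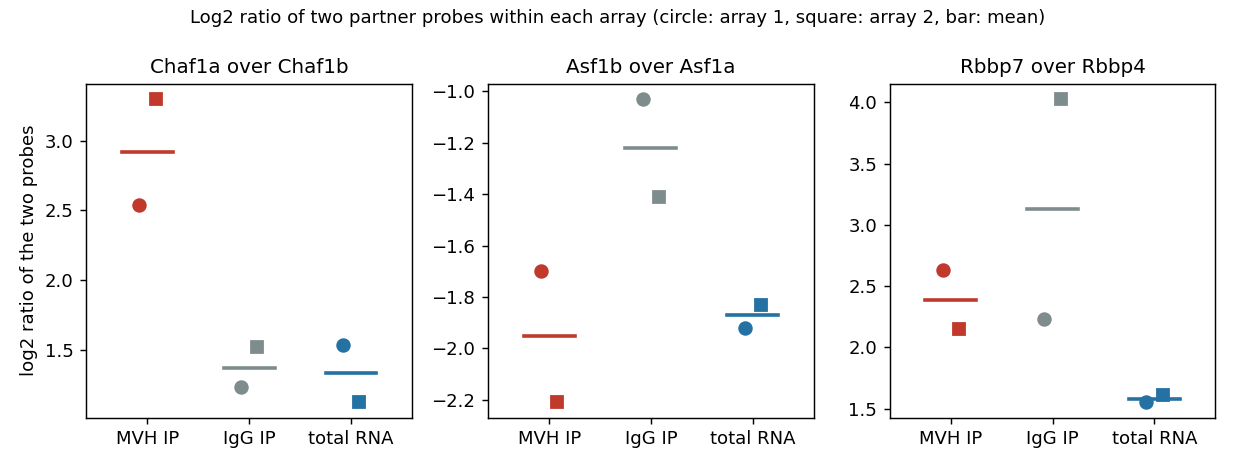
Log2 ratio of 2 partner probes on each array, for Chaf1a over Chaf1b, Asf1b over Asf1a and Rbbp7 over Rbbp4, with the MVH IP on the left, the IgG IP in the middle and total RNA on the right (circles array 1, squares array 2, bars means). The ratio of the CAF-1 subunits is highest on both MVH arrays, at 2.54 and 3.30, and the panels have separate vertical scales.

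The profile of Hat1 over the 6 arrays was set against those of all named probes, as the Euclidean distance between log2 values after subtracting each probe's own mean. The nearest were Spam1, a hyaluronidase of sperm (distance 0.26), Xmr (0.30), Trpv6, a calcium channel (0.30), Pus3, a pseudouridine synthase (0.30), and Gk2, a glycerol kinase of testis (0.31). Like Hat1 they were highest on MVH precipitate 2: Spam1 had 399 and 898 in the MVH precipitates, 356 and 252 in the IgG precipitates, and 367 and 391 in total RNA. Trpv6 was dim, at 5.48 to 15.7. Over the same 6 arrays the nearest of the other members to Hat1 was Asf1a (1.25) and the farthest were Rbbp7 and Nasp (2.43 each). The 5 genes above were picked for their small distance, so that they are no measure for the distances of the members.

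Other genes of histone acetylation and deposition were described with 1 probe per gene. Of 18 other histone acetyltransferase genes, 17 were tested between the MVH and IgG precipitates, and 3 were called higher and 1 lower by limma, 23.5% of the list beside 7.97% of all probes. The median was 0.14, against 0.07 over all probes, and it ranged from 0.05 to 0.48 when 1 array was left out and was 0.56 without the dimmest 25% of probes. Kat8, whose enzyme acetylates H4 in chromatin, had 1198 and 926 with MVH and 357 and 231 with IgG (1.87 ± 0.33, SE, 2 arrays per group, limma adjusted p = 0.0198). Kat7, the enzyme of the HBO1 complex, was higher by 1.45 (limma adjusted p = 0.0241) and Kat2b, also called PCAF, by 1.17 (limma adjusted p = 0.0433), both from dim probes. Naa40, which acetylates the first residue of H4 and H2A, was lower, at 103 and 113 with MVH against 366 and 346 with IgG (-1.73 ± 0.26, SE, 2 arrays per group, limma adjusted p = 0.0172).

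The list of other histone chaperones held 31 genes, some of them partners of chaperones, such as Pcna, Tlk1, Tlk2 and Ipo4. Of these 31, 27 were tested, and 0 were called higher and 3 lower with MVH, 11.1% of the list beside 7.97% of all probes. The median was -0.31, against 0.07 over all probes, and it was -0.11 without MVH precipitate 1, -0.18 without IgG precipitate 1 and -0.46 without MVH precipitate 2. Sart3, a splicing factor that also binds histones, differed by -1.61 (limma adjusted p = 0.0222). Nap1l4, a chaperone of H2A and H2B, had 2377 and 2189 with MVH against 5298 and 6094 with IgG (-1.32, limma adjusted p = 0.0261). Hjurp, which deposits the centromeric histone, differed by -1.29 (limma adjusted p = 0.0275), but its second probe went the other way and did not pass (0.77, limma adjusted p = 0.123). With no centring 0 of the 27 were called by limma, 823 of all probes were called and the median was -0.05, while that of all probes was 0.34, a shift of all genes alike.

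Of 27 further subunits of complexes that hold RBBP4 or RBBP7, 22 were tested and 1 was called higher and 1 lower, 9.09% of the list and so near the 7.97% of all probes. The median was 0.06, with a range of -0.14 to 0.21 when 1 array was left out. Gatad2b, of the NuRD remodelling complex, was higher by 1.39 (limma adjusted p = 0.0306), from a dim probe. Sin3b, a scaffold of histone deacetylases, was lower, at 8294 and 8658 with MVH against 22703 and 19665 with IgG (-1.32 ± 0.28, SE, 2 arrays per group, limma adjusted p = 0.03). Of 17 bromodomain genes, whose proteins read acetylated histones, 14 were tested and 0 were called by limma, with a median of -0.34. Their largest values were -1.18 for Baz1a (limma adjusted p = 0.0512), -1.18 for Baz2b (0.292) and -0.97 for Brd2 (0.0585). At other settings some were called, all lower: 3 of 14 after an offset of 4, 3 of 14 when a variance trend was fitted robustly, 3 of 13 without the dimmest 25% of probes, 2 with probes listed on all 6 arrays, and 1 each with quantile normalization, with 75th percentile centring, with 1 probe per gene and without IgG precipitate 2. In the other comparisons limma called 0 genes of the 4 lists. For MVH against total RNA the medians were 0.21 (acetyltransferases), 0.03 (chaperones), 0.26 (complex subunits) and 0.11 (bromodomain genes), beside -0.02 over all probes. For IgG against total RNA they were -0.16, 0.23, 0.25 and 0.49, beside -0.1. Of the chaperone genes called lower, MVH differed from total RNA by 0.2 for Sart3, -0.83 for Nap1l4 and -0.67 for Hjurp.

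Between the MVH and IgG precipitates the counts of calls changed with which arrays were fitted, also among fits that each left out 1 array. When either MVH precipitate or either total RNA array was left out, 0 acetyltransferase, 0 chaperone and 0 complex subunit genes were called. Over all probes the calls at those settings were 110 without MVH precipitate 1 and 0 at the other 3, and without a total RNA array the list medians were as reported, at 0.14, -0.31 and 0.06. Without IgG precipitate 1 the counts were 5, 1 and 1, and without IgG precipitate 2 they were 2, 1 and 1.

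**Figure D4:**
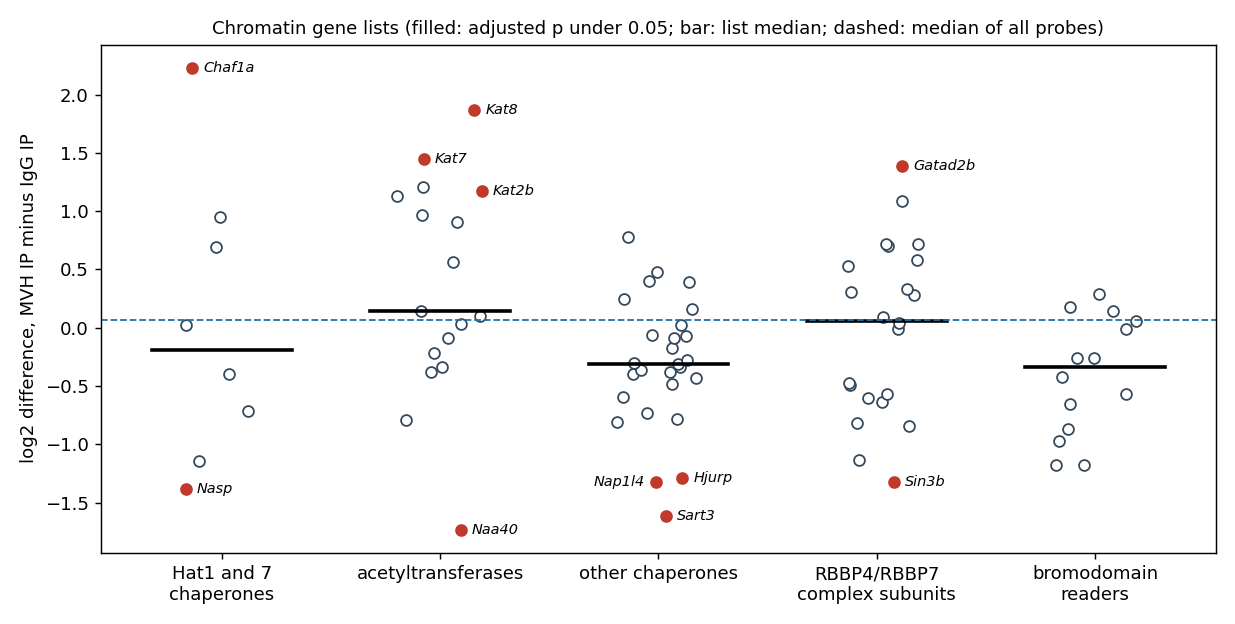
Log2 difference between the MVH IP and the IgG IP for 1 probe per gene in 5 lists, with filled and named points where the limma adjusted p was under 0.05, bars at the list medians (-0.19, 0.14, -0.31, 0.06 and -0.34 from left to right) and a dashed line at the median of all probes, 0.07. Chaf1a, at 2.23, is the highest point shown and Naa40, at -1.73, the lowest.

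**Figure D5:**
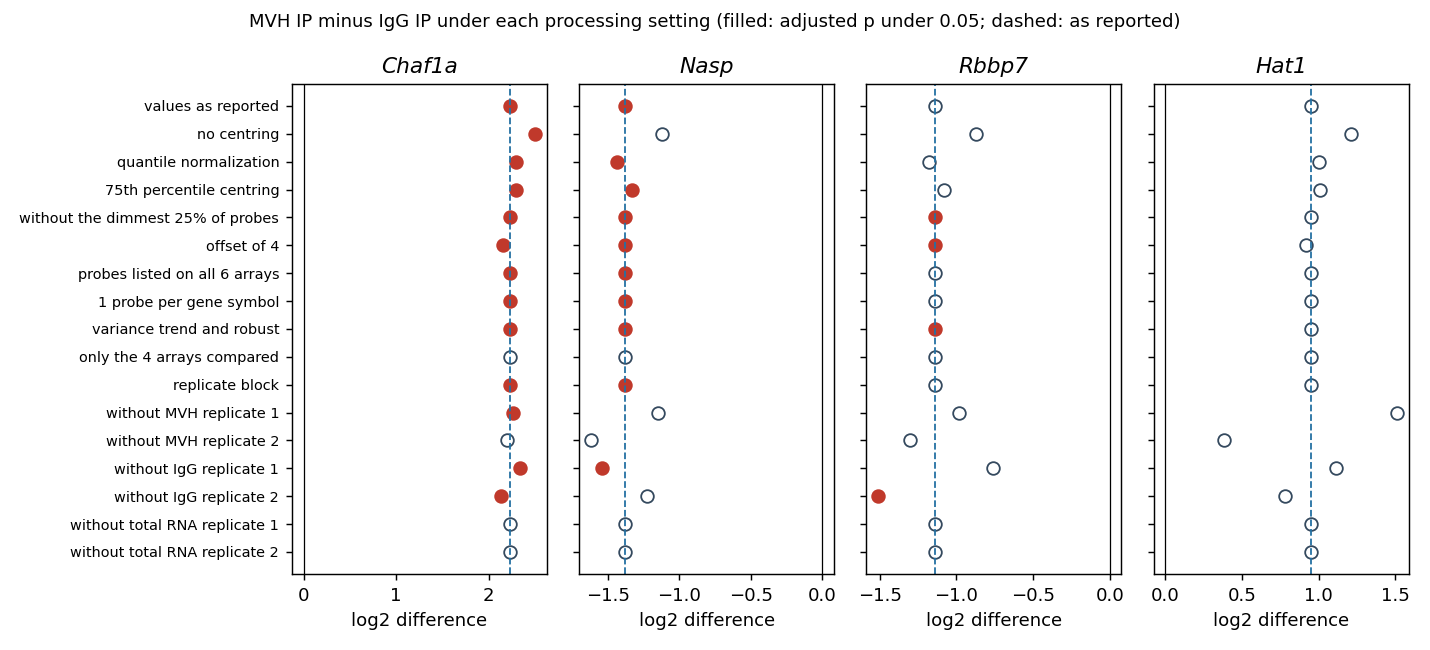
Log2 difference between the MVH IP and the IgG IP (horizontal axis, a separate scale per gene) for Chaf1a, Nasp, Rbbp7 and Hat1 under the reported and 16 other settings (rows), with filled points where the limma adjusted p was under 0.05 and a dashed line at the reported value. Chaf1a stays between 2.13 and 2.50, whereas Hat1 ranges from 0.38 to 1.51 according to which MVH array is left out.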

How the data were processed

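Cy5-labelled amplified RNA of 1 sample was hybridised to each array, per the labels' protocols. The values deposited by the authors are probe intensity on a linear scale. How the arrays were scanned, corrected for background and scaled, and why some cells are blank, is not stated in the sources used here. Protocol text in the labels that concerns another tissue was set aside. Of 23473 probes, 16631 had 1 gene symbol in the platform annotation, 0 had several and 6842 had none. Through RefSeq synonyms (mouse GRCm38.p6, used for names only, since the table names no build), 3947 symbols were updated, 12622 being current and 62 unmatched.

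The log2 intensities of an array were centred on their median. All 6 arrays were fitted in 1 linear model with the methods of limma 3.58.1 in R 4.3.3, which left 3 residual degrees of freedom plus a prior of 5.77; the steps were tested on simulated data. Tests required values on all 4 arrays of a contrast, and p-values were adjusted by Benjamini-Hochberg over every probe tested, with a threshold of 0.05. A list gene was represented by its brightest probe. Named are the 8 members, list genes past the threshold (otherwise up to 3 by size), the 5 nearest to Hat1, and Ddx4; marker genes beside them were named after their values were seen. The members and lists were chosen with earlier results of these data known. Alternatives were no centring, quantile normalization, 75th percentile centring, no dim probes, an offset of 4, probes listed on all arrays, 1 probe per gene, a variance trend with robust fitting, the 4 arrays alone, a replicate block, and leaving out each array. Plots were drawn with matplotlib 3.10.9.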

Additional observations from a re-analysis of the deposited data

How the results depend on the processing

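Of 384 values of the 8 members under 16 alternatives, 355 kept their direction and their side of the threshold. Another 11 lost a call, 10 gained one and 8 changed sign. As reported only 2 of 24 member tests were called, so the 355 are mostly values that stayed uncalled. The 11 lost calls were all of Chaf1a and Nasp between MVH and IgG. The settings are not all distinct: fitting only the 4 arrays compared gave the same member values as leaving out either array of the third group. All 8 changes of sign came from leaving out 1 array, in values that had not passed: over those omissions Asf1a ranged from -0.04 to 0.08 and Rbbp4 from -1.67 to 0.87 between MVH and IgG, Hat1 from -0.12 to 1.01 and Chaf1b from -0.45 to 0.25 between MVH and total RNA, and Rbbp4 from -1.38 to 1.16 between IgG and total RNA. Of the members, 2 were called between MVH and IgG, 3 without the dimmest 25% of probes, with an offset of 4 and with a variance trend and robust fitting, 1 with no centring and 0 with only the 4 arrays compared, and 0 to 2 when 1 array was left out. Against total RNA, 1 was called with MVH (Chaf1a) and 1 with IgG (Rbbp7) at the same 3 settings, and otherwise 0. Over all probes, the 1719 calls between MVH and IgG became 823 with no centring (702 higher and 121 lower, against 824 and 895), 3116 without the dimmest 25%, 3067 with an offset, 3143 with a variance trend and robust fitting (changed together here and in the counts that follow), 0 with only the 4 arrays compared, and 0 to 1327 without 1 array. The 3 calls between MVH and total RNA became 19 with no centring, 8 with 75th percentile centring, 123 without the dimmest 25%, 93 with an offset, 30 with probes listed on all 6 arrays, 0 with 1 probe per gene, 180 with a variance trend, 6 with only the 4 arrays compared, and 0 to 10 without 1 array. The 2 calls between IgG and total RNA became 5 with no centring, 141 with quantile normalization, 211 with 75th percentile centring, 1183 without the dimmest 25%, 1118 with an offset, 469 with probes listed on all 6 arrays, 99 with 1 probe per gene, 1253 with a variance trend, 1 with only the 4 arrays compared, and 0 to 58 without 1 array. Fewer arrays in a fit leave fewer degrees of freedom, and what caused the changes in the counts was not tested.

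The replicate numbers are shared by the groups, but nothing in the labels ties same-numbered arrays together. Deviations of same-numbered arrays correlated at 0.157, 0.156 and 0.101 over 21241 probes for MVH with IgG, MVH with total RNA and IgG with total RNA. With a replicate block 2 members were called between MVH and IgG and 0 in the other comparisons, as without it, and 2267, 4 and 150 of all probes. It called 2 of the 14 bromodomain genes between MVH and IgG, both lower, where 0 were called without it.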
